A study of Mus musculus with 6 samples.

Results

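The intermediate filament genes of neurons and glia were followed in 6 RNA sequencing libraries of cultured mouse GABAergic interneurons. They were taken by symbol from the deposited table: 9 genes of the 55335 listed, all found once. Of these, 5 encode filament proteins of neurons (Nefl, Nefm, Nefh, Ina and Prph) and 4 encode filament proteins of glia and progenitors (Gfap, Vim, Nes and Synm). The cells came from wild-type C57BL/6 embryos at embryonic day 14.5 and were infected in culture with adeno-associated virus (AAV) for 12 hours. In 3 libraries the virus carried a scrambled hairpin (AAV-scramble) and in 3 a hairpin against Brpf1 (AAV-shbrpf1), a scaffold of histone acetyltransferase complexes. Every library therefore carried virus. The labels give neither the promoter of the hairpin, nor any pooling of embryos, nor the time from infection to harvest. The labels call the source neural progenitors in one field and interneurons in the title. The question behind the series is the role of Brpf1 in interneurons born in the medial ganglionic eminence, a ventral zone of the embryonic forebrain.

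Intermediate filaments are rope-like polymers of coiled-coil proteins, and the set a cell makes follows its type and maturity. Dividing neural progenitors make vimentin and nestin, postmitotic neurons add alpha-internexin early, and the light, medium and heavy neurofilament subunits build up later as axons grow and widen. Astrocytes keep vimentin and add glial fibrillary acidic protein. Peripherin belongs mainly to peripheral neurons and to some neurons of the brainstem and spinal cord.

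Depth, estimated from the spacing of low values, was 13.1 to 21.1 M fragments per library, and 18780 to 26132 genes were above 0. The titles number the libraries from 1 to 3 in each group, without saying what a number stands for, and libraries of one number resembled each other more than libraries of one virus. The replicate number is therefore shown beside the virus throughout. Ribosomal RNA loci held 7.95% and 12.3% of implied fragments in both number 2 libraries and 2.24% to 3.94% in the remaining 4. The share of mitochondrially encoded genes was 8.39% and 9.08% in number 1, 2.68% and 1.98% in number 2 and 6.01% and 5.55% in number 3. Brpf1 itself stood at 3.29, 5.45 and 4.84 FPKM under AAV-scramble (numbers 1, 2, 3) and 3.13, 4.58 and 3.78 FPKM under AAV-shbrpf1, so the groups overlapped. Within pairs it was lower with AAV-shbrpf1 in 3 of 3, with ratios of 0.951, 0.84 and 0.782 and a blocked log2 difference of -0.18 that did not pass (limma, unadjusted p = 0.127, adjusted p = 1). FPKM is fragments scaled to transcript length and library depth, which allows levels of different genes to be set side by side. GABAergic markers were present as labelled: all 8 on the list were measured and summed to 331 to 442 FPKM. Each of 6 glutamatergic and 8 microglial markers stayed under 1 FPKM. Progenitor and astrocyte markers were also abundant (summed to 238 to 866 and to 259 to 483 FPKM). So were the 7 oligodendrocyte lineage markers, which summed to 111 to 274 FPKM. In such bulk samples, fewer cells of a type and less RNA per cell cannot be told apart. The labels do not say whether replicates are separate cultures; p-values below cover the spread among the 6 libraries alone, and this may be technical.

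Alpha-internexin dominated the family. Ina, which encodes this early neuronal filament protein, had the highest mean level of the 9 genes at 114 FPKM and exceeded Vim, the next at 34.4 FPKM, in 6 of 6 libraries. Nefl followed at 28.3, Nes at 22.4, Nefm at 12.5, Gfap at 7.5, Nefh at 5.64, Synm at 1.36 and Prph at 0.364 FPKM. Several neighbours in this order did not separate. Vim was above Nefl in 4 of 6 libraries, Nefl above Nes in 4, Nes above Nefm in 5, Gfap above Nefh in only 2 and Synm above Prph in 5. Nefm exceeded Gfap, and Nefh exceeded Synm, in 6 of 6.

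**Figure D1:**
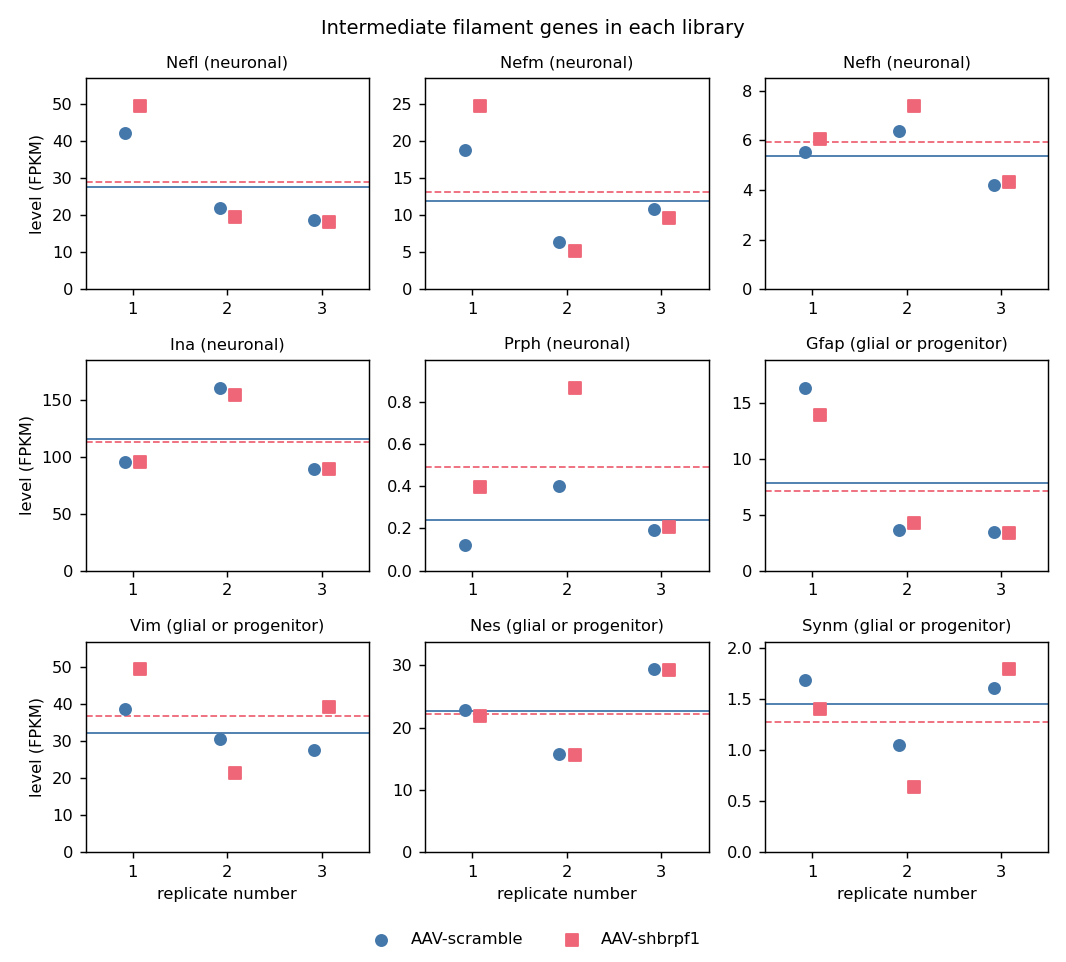
Level of each of the 9 genes (FPKM, linear axis from 0, own scale per panel) by replicate number; circles are AAV-scramble and squares AAV-shbrpf1 libraries, and the solid and dashed lines are their respective group means (n = 3). Same-numbered libraries lie together for most genes: Nefl, Nefm and Gfap are high in the number 1 libraries, Ina in those numbered 2 and Nes in those numbered 3.

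Nefl encodes the light neurofilament subunit, the core on which the neurofilament assembles. It measured 42.2, 22 and 18.6 FPKM under AAV-scramble and 49.4, 19.4 and 18.0 FPKM under AAV-shbrpf1. Both libraries numbered 1 stood above the other 4, and the virus groups overlapped. An estimated 859 to 3217 fragments lay behind each value, so that counting error alone was 1.76% to 3.41%. The gene (ENSMUSG00000022055) maps to chr14:68083863-68089095 (plus strand), and all positions here are in GRCm38.

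Nefm, the medium subunit, carries a long tail that projects from the filament. Its values were 18.7, 6.32 and 10.8 FPKM under AAV-scramble and 24.7, 5.16 and 9.54 FPKM under AAV-shbrpf1. The libraries numbered 1 were again the highest, and those numbered 2 the lowest. Nefm (ENSMUSG00000022054) maps to chr14:68082590-68124846 (minus strand). One of its 2 annotated transcripts runs across Nefl, and the genes share 1108 exonic bases of the 3380 in Nefl. Strand use in counting is unknown here, so some reads of Nefl may be counted for Nefm and the reverse. The Nefm to Nefl ratio ran from 0.266 to 0.582 over the libraries, with the 2 lowest in the number 2 libraries. The share of such reads was not tested.

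Nefh encodes the heavy subunit, the last of the 3 to appear in development, whose tail is heavily phosphorylated in mature axons. It stood at 5.54, 6.36 and 4.19 FPKM under AAV-scramble and 6.06, 7.39 and 4.32 FPKM under AAV-shbrpf1. The libraries numbered 2 were the highest here and those numbered 3 the lowest, an order that differs from that of Nefl and Nefm. Nefh (ENSMUSG00000020396) maps to chr11:4938754-4948064 (minus strand), and no other annotated gene overlaps it.

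Ina measured 95.8, 161 and 89.4 FPKM under AAV-scramble and 95.4, 154 and 89.0 FPKM under AAV-shbrpf1. The libraries numbered 2 stood apart above the other 4, which lay close together. Its ratio to Nefl was 2.27 and 1.93 in the number 1 libraries, 7.30 and 7.93 in those numbered 2 and 4.81 and 4.94 in those numbered 3. The gene (ENSMUSG00000034336) maps to chr19:47014698-47025327 (plus strand). It shares 456 exonic bases with Nt5c2 on the other strand, which was at or below 10.2 FPKM in every library.

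Prph encodes peripherin and was close to the limit of detection. It was listed at 0.122, 0.401 and 0.191 FPKM under AAV-scramble and 0.398, 0.868 and 0.207 FPKM under AAV-shbrpf1. These values rest on an estimated 3 to 21 fragments, with a counting error of 21.7% to 55.5%. Prph was the only one of the 9 genes that did not reach a mean of 1 FPKM in either group and so did not enter the fit over all genes. It was higher with AAV-shbrpf1 in 3 of 3 pairs, and permuting the libraries exhaustively gave an exact two-sided p = 0.3 for the group means (permutation test), where the smallest that 3 libraries against 3 allow is 0.1. The 6 markers of peripheral and sensory neurons were each under 1 FPKM too, with Isl1 and Avil the most abundant, at most at 0.71 and 0.232 FPKM. Prph (ENSMUSG00000023484) maps to chr15:99055174-99058978 (plus strand).

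Among the glial and progenitor genes, Gfap, the filament gene of astrocytes, had the widest spread. It stood at 16.4, 3.65 and 3.46 FPKM under AAV-scramble and 13.9, 4.23 and 3.40 FPKM under AAV-shbrpf1. Both libraries numbered 1 lay far above the other 4, which hardly differed. Gfap (ENSMUSG00000020932) maps to chr11:102887336-102900912 (minus strand). Of the summed level of the 4 glial and progenitor genes it made up 20.7% and 16% in the number 1 libraries and 4.63% to 10.1% in the others.

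Vim encodes vimentin, the filament of progenitors, astrocytes and mesenchymal cells. Its levels were 38.6, 30.5 and 27.5 FPKM under AAV-scramble and 49.3, 21.4 and 39.0 FPKM under AAV-shbrpf1. Same-numbered libraries were further apart than for the other abundant members. The AAV-shbrpf1 to AAV-scramble ratio was 1.28 in pair 1, 0.703 in pair 2 and 1.42 in pair 3, against counting errors of 2.19% to 4.03% per value. Vim (ENSMUSG00000026728) maps to chr2:13573927-13582826 (plus strand).

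Nes encodes nestin, which is bound to vimentin filaments in dividing progenitors. It measured 22.8, 15.8 and 29.4 FPKM under AAV-scramble and 21.8, 15.6 and 29.2 FPKM under AAV-shbrpf1. The AAV-shbrpf1 to AAV-scramble ratios of the 3 pairs were 0.955, 0.987 and 0.995, while the 3 numbers were well apart. Nes (ENSMUSG00000004891) maps to chr3:87971078-87980451 (plus strand).

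Synm encodes synemin, a large filament protein that joins vimentin filaments to adhesion complexes. It was low, at 1.68, 1.05 and 1.61 FPKM under AAV-scramble and 1.40, 0.642 and 1.79 FPKM under AAV-shbrpf1. The libraries numbered 2 were the lowest. Synm (ENSMUSG00000030554) maps to chr7:67730160-67759742 (minus strand), and an estimated 66 to 261 fragments gave counting errors of 6.19% to 12.3%.

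The promoter sequences of Gfap, Ina and Nes are shown because these genes were highest in the libraries numbered 1, 2 and 3 in turn. RefSeq's promoter table for GRCm38.p6 holds 6 of the 9 genes (not Nefl, Nefm or Nefh). Each sequence is the 250 bases before the start, 5′ to 3′ on the strand of the gene, with CG dinucleotides in capitals. The windows are chr11:102897201-102897450 on the minus strand, chr19:47014431-47014680 on the plus strand and chr3:87970843-87971092 on the plus strand.
Gfap: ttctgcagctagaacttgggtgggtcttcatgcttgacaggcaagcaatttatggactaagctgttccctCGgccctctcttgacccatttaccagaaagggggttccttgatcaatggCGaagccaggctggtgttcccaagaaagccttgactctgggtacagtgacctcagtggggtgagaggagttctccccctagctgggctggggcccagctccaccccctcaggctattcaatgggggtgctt
Ina: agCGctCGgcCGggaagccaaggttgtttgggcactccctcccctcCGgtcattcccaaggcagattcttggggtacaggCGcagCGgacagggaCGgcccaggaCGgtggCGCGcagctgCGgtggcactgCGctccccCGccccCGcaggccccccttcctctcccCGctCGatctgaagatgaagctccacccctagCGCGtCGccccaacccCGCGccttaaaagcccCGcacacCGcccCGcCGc
Nes: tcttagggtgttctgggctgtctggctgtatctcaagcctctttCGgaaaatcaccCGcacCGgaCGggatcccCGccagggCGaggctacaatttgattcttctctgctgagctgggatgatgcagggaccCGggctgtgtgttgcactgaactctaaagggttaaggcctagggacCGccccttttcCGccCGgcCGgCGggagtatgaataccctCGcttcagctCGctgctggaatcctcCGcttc
In GENCODE M21 the Gfap window overlaps no Gfap exon and lies in an intron of a longer noncoding Gfap transcript. The Nes window ends at 87971092, past the annotated start of the gene at 87971078. The Vim window (chr2:13574061-13574310) lies wholly past the annotated start of Vim at 13573927. The Gfap window holds 2 CG dinucleotides, that of Nes 15 and that of Ina 25, where the median over 32851 promoters is 6 and the middle 50% run from 2 to 16. Synm with 23 lies near Ina, and Prph with 7 and Vim with 8 lie near the median. The motif TATAAA, searched on both strands, is present in 12.4% of all windows, among them those of Prph (31 to 26 bases before the start) and Vim (32 to 27 bases before it). CCAAT is present in 33.8% of windows, among them those of Vim and Synm. TTCNNNGAA, the core of a STAT site, is present in 7.02% and in none of the 6. None of these 3 motifs occurs in the windows of Gfap, Ina and Nes, which says only that these letters are not there.

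Summed over the class, the 5 neuronal genes gave 162, 196 and 123 FPKM under AAV-scramble and 176, 187 and 121 FPKM under AAV-shbrpf1. The 4 glial and progenitor genes gave 79.5, 51.0 and 62.0 FPKM and 86.4, 41.9 and 73.4 FPKM. The neuronal sum was thus 2.04, 3.84 and 1.99 times the glial and progenitor sum with AAV-scramble and 2.04, 4.46 and 1.65 times with AAV-shbrpf1, with group means of 2.62 ± 1.06 and 2.71 ± 1.52 (SD, n = 3). The virus groups overlapped and the libraries numbered 2 were the highest in both. By number, the mean neuronal sum was 169, 191 and 122 FPKM and the mean glial and progenitor sum 82.9, 46.4 and 67.7 FPKM, so the libraries numbered 2 had both the highest neuronal and the lowest glial and progenitor sum. Without Ina and Vim together, the most abundant gene of each class, the mean ratio was 1.90 in the number 1 libraries, 1.66 in those numbered 2 and 0.956 in those numbered 3. Ina held 82.1% and 82.4% of the neuronal sum in the number 2 libraries, but 59.0% and 54.2% in those numbered 1. The 3 neurofilament subunits together gave 66.4 and 80.2 FPKM in the number 1 libraries and 31.9 to 34.7 FPKM in the other 4. Neither class therefore moved as a unit from library to library. The share of neuronal and non-neuronal cells was not measured, and its part in these ratios was not tested.

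**Figure D2:**
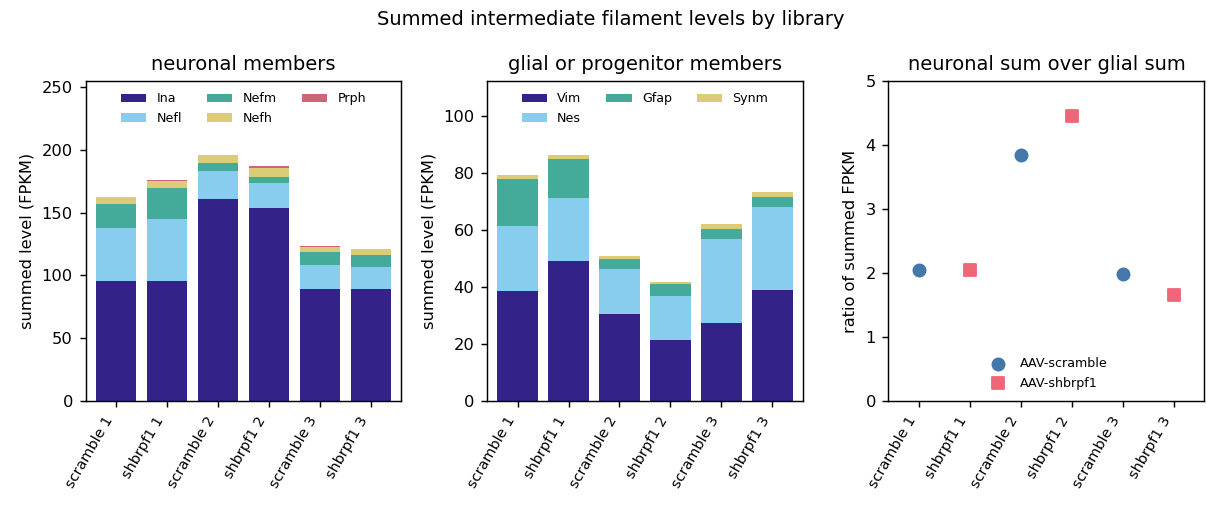
Summed level (FPKM, axes from 0) of the neuronal genes (left) and of the glial or progenitor genes (middle) in each library, stacked by gene, and the ratio of the sums (right; circles AAV-scramble, squares AAV-shbrpf1). The ratio is 3.84 and 4.46 in the number 2 libraries and between 1.65 and 2.04 in the others, and Ina is the tall block of the libraries numbered 2.

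Between the viruses no filament gene passed the test. Of the 8 genes tested, 0 were higher and 0 lower with AAV-shbrpf1 at an adjusted p under 0.05 (limma on log2(FPKM + 1), adjusted over 12792 genes), as for 0% of all genes tested. None of the 8 had an unadjusted p under 0.05, where 23 of all genes did. None of the 9 had virus groups that did not overlap, against 1.07% of genes tested. The median difference over the 8 was -0.02, the same as over all genes tested.

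The replicate number absorbed most of the spread of these genes, so the fit with the number as a block gave far narrower intervals with the same differences. For Nefl the difference between AAV-shbrpf1 and AAV-scramble was 0.00 on the log2(FPKM + 1) scale, with a 95% interval of -1.09 to 1.10 without the block and of -0.25 to 0.26 with it. For Gfap it was -0.03, with intervals of -1.57 to 1.51 and of -0.31 to 0.25. The narrowest interval under the block was that of Nes, from -0.22 to 0.16 around -0.03. Ina was nearly as tight, from -0.22 to 0.17 around -0.03. A doubling or a halving of these 4 genes, a difference of about 1 on this scale, lies outside the blocked intervals and, for Nefl and Gfap, inside the unblocked ones. Nefm was at -0.01 (-0.37 to 0.35 under the block) and Nefh at 0.11 (-0.12 to 0.34). With the block 0 of the 8 genes passed (limma adjusted p = 1 for each), and 0 had an unadjusted p under 0.05, where 280 of all genes did and 0% passed.

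Vim and Synm, both glial or progenitor genes, were measured less tightly. Vim stood at 36.6 ± 14.1 FPKM with AAV-shbrpf1 and at 32.2 ± 5.71 FPKM with AAV-scramble (SD, n = 3), a log2 difference of 0.12 and a blocked interval of -0.38 to 0.61. It was higher in 2 of 3 pairs. Without the pair numbered 2, in which it was lower, the blocked difference was 0.42 with an unadjusted p of 0.00714 and an adjusted p of 0.944 (limma). Leaving out the only pair of opposite sign raises the difference by construction. Without pair 1 it was 0.00 and without pair 3 it was -0.07. Synm was at -0.13 with a blocked interval of -0.47 to 0.21, and lower in 2 of 3 pairs. Nes and Ina were each lower in 3 of 3 pairs and Nefh higher in 3 of 3, with pair ratios no further from 1 than 0.955, 0.957 and 1.16.

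**Figure D3:**
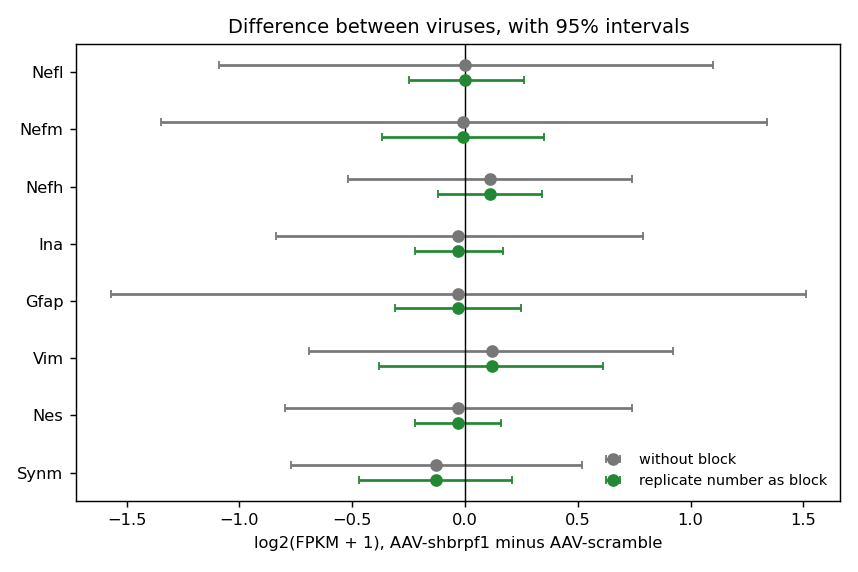
Difference between AAV-shbrpf1 and AAV-scramble in log2(FPKM + 1) for the 8 genes tested, with 95% intervals from limma without a block (grey) and with the replicate number as a block (green). All intervals hold 0, and the blocked ones of Nefl, Nes and Ina stay within 0.26 of it.

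Between the replicate numbers, most of the filament genes differed, as did most genes of the table. Of the 8 tested, 6 (75%) passed limma's F test of the number with the virus in the model (Nefl, Nefm, Nefh, Ina, Gfap and Nes), against 69.4% of all 12792 genes. The filament genes were therefore close to the background in how often they changed. The number was made a factor with the resemblance of same-numbered libraries already known. Vim (adjusted p = 0.0813) and Synm (adjusted p = 0.0522) did not pass. Nefh lost the call without either library numbered 1, without AAV-shbrpf1 library 3 (adjusted p of 0.0633 to 0.0697) and when libraries were rescaled to a common sum (0.111).

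The genes that passed took 3 different courses, of which Gfap, Ina and Nes, whose promoters are printed above, are examples. Gfap, Nefl and Nefm had both libraries numbered 1 above the other 4, and no other filament gene did. Vim came near this, at 38.6 and 49.3 FPKM in number 1 against at most 39.0 FPKM. Some reads of Nefl may be counted for Nefm, and the part of this in their shared course was not tested. The mitochondrially encoded share was highest in the number 1 libraries, and its part in these values was not tested. Gfap was higher in number 1 than in number 2 by 1.71 ± 0.14 and than in number 3 by 1.86 ± 0.14 on the log2 scale (SE, limma adjusted p = 0.00104 and 0.00671). For Nefl these differences were 1.11 ± 0.12 and 1.27 ± 0.12 (adjusted p = 0.00147 and 0.00676), and for Nefm 1.74 ± 0.18 and 1.01 ± 0.18 (adjusted p = 0.00126 and 0.0141). In number 1, 42.4% of all genes were called higher than in number 2 and 15.8% higher than in number 3. With either library numbered 1 left out, no gene of the table was called between numbers 1 and 3. The differences without AAV-scramble library 1 and without AAV-shbrpf1 library 1 were then 1.44 and 1.11 for Nefl, 1.31 and 0.71 for Nefm and 1.71 and 2.01 for Gfap.

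Ina took the second course. It was lower in number 1 than in number 2 by a log2 difference of -0.71 ± 0.10 (adjusted p = 0.00205), as were 22.9% of all genes, and higher in number 2 than in number 3 by 0.81 ± 0.10 (adjusted p = 0.00519), as were 12.9%. Nefh was likewise higher in number 2 than in number 3, by 0.58 ± 0.11 (adjusted p = 0.0129), a call lost on scaling to a common sum (0.40, adjusted p = 0.0685) and without AAV-shbrpf1 library 2 or 3 (adjusted p = 0.0543 and 0.0723). Nes took the third course, with number 3 above number 1 and number 1 above number 2. Its log2 difference was -0.86 ± 0.09 for number 2 minus number 3 (adjusted p = 0.00502, with 34.3% of all genes called lower) and -0.38 ± 0.09 for number 1 minus number 3 (adjusted p = 0.031, with 15.3% called lower). The latter lost its call without a filter on low values (adjusted p = 0.0632), without either library numbered 1 (0.205 and 0.218) and without either numbered 3 (0.111 and 0.0902). Between numbers 1 and 2, 5 of the 8 genes were called higher in number 1 and 1 lower, against 42.4% and 22.9% of all genes. The median of all genes was 0.25 higher in number 1. Scaling by median ratios takes that shift away, and under it Gfap, Nefl, Nefm and Ina kept the direction and the call of these differences between numbers 1 and 2, while Nes (from 0.48 to 0.19, adjusted p = 0.124) and Vim (from 0.75 to 0.45, adjusted p = 0.146) lost the call.

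**Figure D4:**
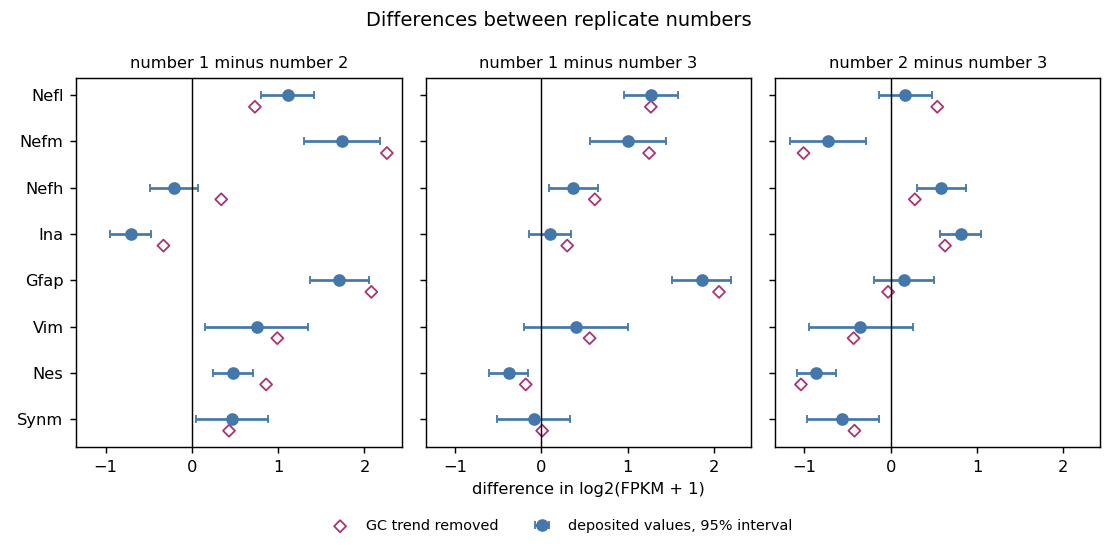
Differences between replicate numbers in log2(FPKM + 1) for the 8 genes tested, with 95% intervals (filled points, limma with the virus in the model) and the same differences after removal of the trend with GC content (open diamonds). The filled points of Gfap, Nefl, Nefm and Vim lie to the right of 0 in both comparisons of number 1. The interval of Vim against number 3 holds 0. The diamonds of Nefh (0.34 and 0.62) and Synm (0.43 and 0.01) also lie to the right in both. Ina lies to the left against number 2.

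The GC content of transcripts moved with the replicate number. In number 1 minus number 2, the median log2 difference ran from 1.19 in the 20% of genes with the lowest GC content to -0.57 in the 20% with the highest. By transcript length it ran from 0.09 in the shortest 20% to 0.47 in the longest. Nes, with a difference of 0.48, and Synm, with 0.47, are in that longest 20%. The part of length in these values was not tested. The filament transcripts are mostly rich in GC: 57.8% for Nefm, 58.4% for Nefh, 55.5% each for Ina, Gfap and Nes, 53.9% for Vim, 51.4% for Synm and 48.8% for Nefl. Nefm, with a difference of 1.74, stood against a median of -0.57 among genes of like GC content (the top 20%), and Gfap, with 1.71, against -0.26 in the next 20%. Ina, equal in GC content to Gfap, had the opposite sign. After the trend was removed from each library, an alternative chosen after seeing the data, 6 of 8 genes again passed the F test, against 40.6% of all genes. Gfap was then higher in number 1 than in number 2 by 2.08 ± 0.13, Nefm by 2.26 ± 0.17 and Nefl by 0.73 ± 0.12, while Ina was at -0.33 ± 0.09 (adjusted p = 0.041). The direction of Nefh between numbers 1 and 2 turned, from -0.21 to 0.34 (adjusted p = 0.0452), and its difference between numbers 2 and 3 was 0.28 and no longer called (adjusted p = 0.0996). Nes was then at -0.18 for number 1 minus number 3, also no longer called (adjusted p = 0.174), and at -1.04 for number 2 minus number 3 (adjusted p = 0.00941).

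No other gene of the filament system passed the test between the viruses. Of 23 filament partners (cytolinkers, motors, kinases, turnover factors), 22 were found, 18 were tested and 0 passed in either direction, with or without the block, with a median difference of -0.02. The 2 most abundant were Kif5a, a kinesin heavy chain that carries neurofilaments along axons, at 171 ± 56.7 FPKM with AAV-scramble and 172 ± 56.1 with AAV-shbrpf1, and Ywhab, a 14-3-3 protein, at 145 ± 27.5 and 142 ± 35.7 (SD, n = 3). Of 13 other filament genes only 3 were tested, all of them nuclear lamins, and 0 passed. Lmnb1 stood at 24.7 ± 6.53 and 24.6 ± 7.71 FPKM and Lmnb2 at 6.00 ± 0.255 and 6.58 ± 0.169 FPKM, whose groups did not overlap. The epithelial keratins Krt5, Krt8 and Krt14 were listed at 0 in every library. Of 14 genes of the axonal cytoskeleton, all tested, 0 passed. Tubb3, neuronal beta-tubulin, stood at 529 ± 174 and 528 ± 137 FPKM and Gap43, a growth cone protein, at 396 ± 70.8 and 396 ± 111 FPKM.

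Between the replicate numbers, 16 of the 18 partners, 2 of the 3 lamins and 12 of the 14 axonal genes passed the F test, against the 69.4% of all genes. Kif5a, like Ina, was highest in number 2, but it was lowest in number 1 and Ina in number 3. It was at 123 and 131 FPKM in the number 1 libraries, 234 and 236 FPKM in those numbered 2 and 155 and 150 FPKM in those numbered 3. Ywhab was at 174 and 174, at 120 and 104 and at 140 and 148 FPKM in numbers 1, 2 and 3. Tubb3 was at 329 and 396, at 642 and 670 and at 618 and 518 FPKM. Gap43 ran with Nefl, at 473 and 522 FPKM in the number 1 libraries and 313 to 381 FPKM in the others. Among the partners 7 were called higher and 7 lower in number 1 than in number 2. Among the axonal genes 4 were called higher and 5 lower. Of all genes 42.4% were called higher and 22.9% lower.

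Markers of neurons and of other cell types moved with the numbers too. Of the 9 neuron markers, 6 were called higher and 3 lower in number 1 than in number 2. Against number 3, 2 were higher and 3 lower. For the 8 GABAergic markers these counts were 3 and 2, then 3 and 3. Of all genes, 42.4% and 22.9%, then 15.8% and 15.3% were so called. Several mesenchymal markers were high in the number 1 libraries, where Gfap was high. The 8 endothelial and mural markers summed to 28.0 and 25.7 FPKM there and to 1.70 to 2.84 FPKM in the other 4. The 8 fibroblast and meningeal markers summed to 61.3 and 34.5 FPKM there and to 13 to 21.8 FPKM elsewhere. Most of the endothelial and mural sum there was Acta2, smooth muscle actin, at 11.5 and 11.6 FPKM, and Tagln, at 13.5 and 12.5 FPKM. In the other 4 libraries these were at most at 0.407 and 0.746 FPKM. Pdgfrb, a mural marker on that list, did not share this, at 1.78 and 0.837 FPKM in number 1 against 0.857 to 1.7. Col1a1, a fibrillar collagen chain, was at 15.0 and 7.02 FPKM in the number 1 libraries against at most 0.223. On its list, Pdgfra, a growth factor receptor, did not share this, with 9.96 to 18.6 FPKM over all libraries. Nor did S100a6, at 3.07 and 1.61 FPKM in number 1 against 0.998 to 2.49. Of the endothelial markers, Cldn5 and Pecam1 stayed at or below 0.322 and 0.148 FPKM in every library, Kdr was at 0.452 and 0.412 FPKM in the number 1 libraries against at most 0.245, and Cdh5 at 0.1 and 0.0755 FPKM against 0 in the other 4. The GABAergic marker Gad1 was at 177 and 157 FPKM in number 1 against at most 106 FPKM. The neuron marker Snap25 was at 107 and 96.3 FPKM there against at most 47 FPKM. Tubb3 was instead lowest in number 1, at 329 and 396 FPKM against at least 518 FPKM. So was Slc32a1, at 60 and 65.4 FPKM against at least 68.5 FPKM. The part of all these markers in the Gfap, Nefl, Nefm or Vim values was not tested.

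Astrocyte and progenitor markers took several courses. The 10 astrocyte markers summed to 273 and 279 FPKM in the number 1 libraries, to 265 and 259 FPKM in those numbered 2 and to 483 and 453 FPKM in those numbered 3. Of these 10, 3 were called higher and 3 lower in number 1 than in number 2, and 0 higher and 7 lower in number 1 than in number 3, where 42.4% and 22.9% and then 15.8% and 15.3% of all genes were called. Sparcl1, a secreted matrix protein of astrocytes, was at 79.5 and 93.8, at 42.0 and 36.4 and at 135 and 129 FPKM in numbers 1, 2 and 3. Aldoc, the brain aldolase, was at 62.1 and 53.9, at 80.0 and 86.0 and at 124 and 97.9 FPKM. The progenitor marker Fabp7, a fatty acid binding protein of radial glia, was at 730 and 758 FPKM in number 1, at 187 and 169 FPKM in number 2 and at 581 and 570 FPKM in number 3. Like Gfap it thus had both libraries numbered 1 above the other 4, as had Pcna, a replication clamp, at 27 and 26 FPKM against at most 24.5, and Mki67, a protein of dividing cells, at 8.59 and 9.84 FPKM against at most 5.47. The part of these markers in the filament values was not tested. Sox2, a transcription factor of neural progenitors, had the order of Nes, at 36.1 and 36.7, at 25.7 and 24.1 and at 58.2 and 55.4 FPKM. Of the 7 oligodendrocyte lineage markers, 2 were called higher and 5 lower in number 1 than in number 2, against 42.4% and 22.9% of all genes. Between the viruses, 0 of the 9 progenitor, 0 of the 10 astrocyte and 0 of the 7 oligodendrocyte lineage markers tested passed.

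**Figure D5:**
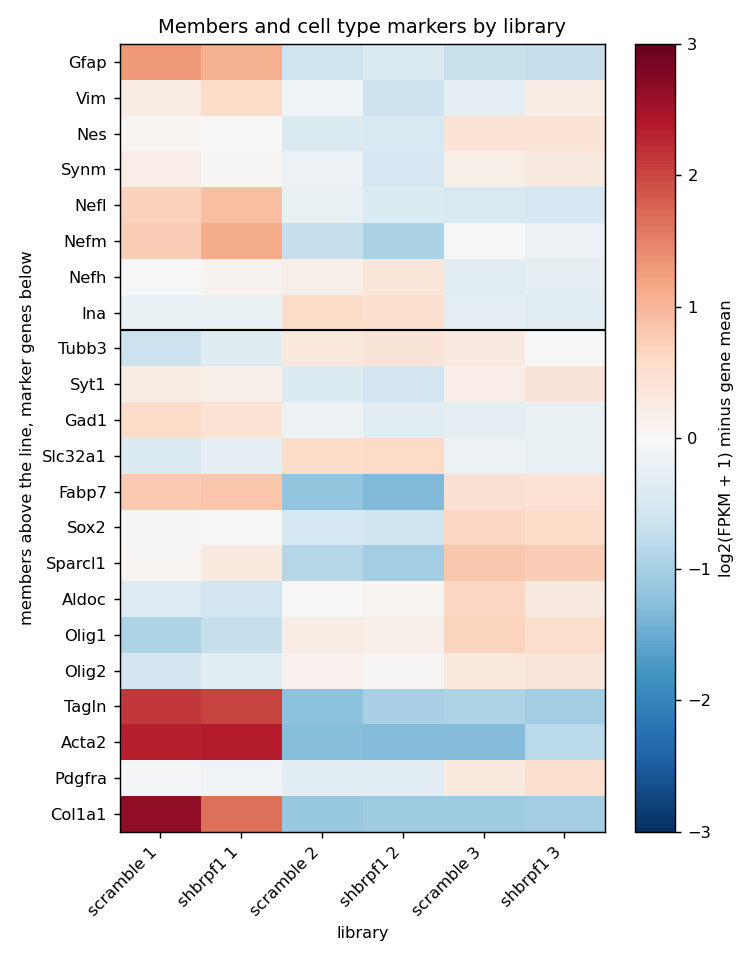
Levels of the 8 tested filament genes (above the line) and of the most abundant markers of each cell type (below it) in each library, as log2(FPKM + 1) minus the gene's mean over the 6 libraries; red is above the mean and blue below. Tagln, Acta2, Col1a1, Gad1 and Fabp7 share with Gfap, Nefl and Nefm the high values in the number 1 libraries. Tubb3 and Slc32a1 are lowest there, and Fabp7 and Sparcl1 are low in those numbered 2.

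The genes most like Gfap were searched among all genes tested, by the root mean square difference of centred log2(FPKM + 1) over the 6 libraries. The 5 nearest were Fbln5 (0.099), Cyr61 (0.108), Postn (0.128), Anxa3 (0.153) and Fgl2 (0.165), where Gfap itself varied by 0.85 around its mean. Fbln5 and Postn encode extracellular matrix proteins and Cyr61 a secreted matricellular protein. Postn stood at 4.07 and 2.71 FPKM in the number 1 libraries and at most at 0.324 FPKM elsewhere, and Cyr61 at 10.4 and 10.8 FPKM against at most 3.13. Fbln5, Anxa3 and Fgl2 were at most at 0.241 FPKM outside number 1, where Gfap was at 3.40 to 4.23 FPKM. The added 1 understates changes of low genes, so nearness on this scale does not mean a like fold change. For Nefl, which varied by 0.57, the nearest were Mirg (0.099), Zfp518a (0.105), Rab33b (0.106), Nrbp2 (0.115) and Ankrd29 (0.130). Mirg is a noncoding RNA of the imprinted Dlk1 to Meg3 region and Rab33b a small GTPase of the Golgi. Of the filament genes the nearest to Nefl was Gfap (0.32), ahead of Nefm (0.38) and far ahead of Ina (0.76).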

How the data were processed

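The members and the gene lists were chosen with earlier results of these data known. Per the submitters' processing notes, FastQC, StringTie and DESeq2 were used, without versions or roles, and the genome build is mm9. Aligner, annotation and strand setting: not given in the sources used here. GENCODE M21, an annotation of GRCm38, holds 55154 of the identifiers, and for 54899 both ends match the deposited ones; positions are therefore labelled GRCm38. The authors made and deposited 1 table of FPKM values for 55335 genes, by steps not recorded in the file header beyond the tools above; the header names no unit, and FPKM was inferred from values that are not whole, sum to no fixed total and fall on length-dependent steps at the low end. Columns were matched to samples by group and number in the title.

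Depth was estimated from 11673 single-exon, single-transcript genes over 400 nt, with the commonest product of FPKM and kilobases taken as 1 fragment. Fragments per gene use the longest coding transcript, and counting errors cover counting only. A gene was tested if either group averaged 1 FPKM or more (12792 genes), on log2(FPKM + 1), which understates changes of low genes, with limma 3.58.1 (trend, two-sided) in R 4.3.3 and Benjamini-Hochberg adjustment at 0.05. Scripts were tested on simulated data. Deviations from group means correlated at 0.87, 0.83 and 0.57 between same-numbered libraries, each above 0.1. Same-numbered libraries were therefore treated as pairs, a pairing inferred from the values and not stated in the labels. Genes named: the 9 members with all values; per pathway list up to 2 past the threshold in each direction or else the 2 most abundant; per marker list the 2 most abundant; and the 5 genes most like Nefl and Gfap, predicted genes apart. Other markers and Nt5c2 were chosen after their values were seen. Alternatives were a pseudocount of 0.1, no filter, scaling to a common sum or by median ratios, the block, each library left out and, added later, removal of the GC trend (lowess, span 0.3, on 12785 genes).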

Additional observations from a re-analysis of the deposited data

How the results depend on the processing

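Between the viruses, 0 filament genes passed under each alternative run, with or without the replicate block. Leaving out 1 library, or 1 pair under the block, moved the log2 differences from -0.45 to 0.34 for Nefl, from -0.57 to 0.47 for Nefm, from -0.04 to 0.29 for Nefh, from -0.27 to 0.24 for Ina, from -0.57 to 0.62 for Gfap, from -0.13 to 0.45 for Vim, from -0.26 to 0.19 for Nes and from -0.29 to 0.09 for Synm; leaving out 1 library without the block breaks a pair. With the block and 1 pair left out, Nefh, Ina, Nes and Synm kept their sign. Without pair 1 the block gave -0.11 for Nefl, 0.08 for Gfap and 0.00 for Vim, without pair 2 it gave 0.11 for Nefm, and without pair 3 it gave 0.07 for Nefm and -0.07 for Vim. Scaling to a common sum gave -0.05 for Nefl. Without a filter Prph was tested as well, with a difference not past the threshold. The block changed no call. Between the numbers, with all 6 libraries kept, 6 filament genes passed under each alternative, or 7 with the virus left out of the model. Of all 12792 genes, 8640 passed with the pseudocount of 0.1 and 9373 with the virus left out. Scaling to a common sum gave 8869 and scaling by median ratios 8605. Without a filter it was 7194 of 31057 genes, and with the GC trend removed 5188 of 12785. Leaving out 1 library leaves a number with 1 library, so no count is given for it. Some signs turned: under scaling to a common sum, number 2 minus number 3 was -0.08 for Nefl and -0.06 for Gfap and number 1 minus number 3 was -0.03 for Ina; with the GC trend removed, number 2 minus number 3 was -0.03 for Gfap, number 1 minus number 3 was 0.01 for Synm and number 1 minus number 2 was 0.34 for Nefh (adjusted p = 0.0452). Leaving out 1 library gave -0.80 to 0.11 for number 2 minus number 3 of Vim and -0.26 to 0.08 for number 1 minus number 3 of Synm. Of 288 such differences under alternatives, 230 kept direction and call, 38 lost and 12 gained a call; the cause was not tested. The neuronal to glial ratio of AAV-scramble fell from 2.62 to 1.44 without Ina and Vim, and that of AAV-shbrpf1 was 1.57; without 1 library they ran from 2.01 to 2.94 and from 1.84 to 3.25. Depth limits Prph and, less so, Synm.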
